A study of Mus musculus with 6 samples.

Results

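The CC chemokine genes of mouse chromosome 11 lie in a pair of clusters, and the accessible chromatin around them was described here in macrophages treated with LPS and the glucocorticoid Dex. The Ccl2 window covers positions 81800000 to 81980000 of the mm9 build and holds Ccl2, Ccl7, Ccl11, Ccl12 and Ccl8. The Ccl5 window covers positions 83300000 to 83520000 and holds Ccl5, Ccl9, Ccl6, Ccl3 and Ccl4. Every DNase I hotspot overlapping a window was taken, 257 of 253044 hotspots over the 6 lists. Merging overlapping hotspots across the lists gave 24 regions in the Ccl2 window and 31 in the Ccl5 window, 55 of 59069 regions in all. Regions are numbered by position within each window. The windows were chosen for their genes and not for their hotspots.

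All cells were macrophages grown from the bone marrow of C57BL/6J mice. All received LPS, a component of the outer membrane of Gram-negative bacteria to which macrophages respond, for 8 h. In the Dex before LPS group (2 libraries) the cells were given Dex ahead of LPS. In the late Dex group (2 libraries) Dex was added late in the LPS treatment. The LPS alone group (2 libraries) received no Dex according to its labels. The labels give no Dex dose and no interval, and cells without LPS were not analysed here. Nothing in the labels states that the replicates came from separate mice or cultures. The macrophage identity could not be checked against marker genes, because the lists give positions without genes and no mm9 annotation was at hand.

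CC chemokines are small secreted proteins that draw leukocytes along a gradient through G protein-coupled receptors. CCL2, CCL7 and CCL12 attract monocytes, largely through CCR2, and CCL11 (eotaxin) attracts eosinophils through CCR3. CCL5, CCL3 and CCL4 act on T cells, monocytes and other cells. CCL6 and CCL9 are rodent chemokines that macrophages make in quantity. LPS induces many of these genes in macrophages through NF-kB and interferon-regulatory factors, and glucocorticoids are known to repress several of them.

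In the RefSeq annotation of GRCm38, a later build, the first cluster runs in the order Ccl2, Ccl7, Ccl11, the lncRNA gene Gm38913, Ccl12 and Ccl8. The second runs in the order Ccl5, the pseudogene Ccl16-ps, Ccl9, the lncRNA gene E230016K23Rik, Ccl6, the lncRNA gene Gm38933, the pseudogene Rpl9-ps1, Ccl3 and Ccl4. The builds differ, so no hotspot was assigned to a single gene or promoter, and a region stands for its window only. Promoter sequences in RefSeq's GRCm38.p6 table matched 5 of the 10 genes, Ccl12, Ccl8, Ccl9, Ccl6 and Ccl3. Of these, 1 from the Ccl2 window and 2 from the Ccl5 window are shown to give the sequence context of the clusters. Each runs 5′ to 3′ on the gene's own strand over 300 bases, with 250 bases before the start site and 50 after it, and capitals mark the motif matches described next.
Ccl12 promoter: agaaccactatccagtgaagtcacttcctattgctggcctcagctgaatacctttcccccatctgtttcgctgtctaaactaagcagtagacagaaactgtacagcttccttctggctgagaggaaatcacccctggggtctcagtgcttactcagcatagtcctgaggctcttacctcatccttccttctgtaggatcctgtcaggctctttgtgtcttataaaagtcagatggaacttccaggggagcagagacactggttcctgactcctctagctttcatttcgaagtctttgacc
Ccl9 promoter: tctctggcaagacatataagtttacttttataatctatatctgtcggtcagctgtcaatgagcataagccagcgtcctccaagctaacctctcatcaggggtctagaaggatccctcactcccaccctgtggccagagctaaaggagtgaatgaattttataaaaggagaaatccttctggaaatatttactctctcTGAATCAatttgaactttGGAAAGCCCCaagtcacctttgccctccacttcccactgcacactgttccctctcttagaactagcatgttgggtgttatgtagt
Ccl3 promoter: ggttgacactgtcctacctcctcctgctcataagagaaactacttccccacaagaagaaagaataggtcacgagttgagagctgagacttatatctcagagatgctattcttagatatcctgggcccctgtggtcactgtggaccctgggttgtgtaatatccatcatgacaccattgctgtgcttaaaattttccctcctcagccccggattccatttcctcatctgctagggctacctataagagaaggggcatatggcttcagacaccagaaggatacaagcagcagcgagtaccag
The Ccl12 promoter is on the plus strand at chr11:82101595-82101894, the Ccl9 promoter on the minus strand at chr11:83578587-83578886 and the Ccl3 promoter on the minus strand at chr11:83649329-83649628, all in GRCm38.p6.

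The motifs searched on both strands of these promoters were the NF-kB motif GGGNNTTCC and its form with a longer spacer, the full palindromic glucocorticoid receptor motif and its single arm AGAACA, the AP-1 motif TGANTCA, the interferon-regulatory factor motif of paired GAAA and the PU.1 motif GAGGAAGT. Among the 5 promoters, that of Ccl9 alone held any of them. It carried TGAATCA, an AP-1 match, beginning 53 bases before the start site, and GGAAAGCCCC, which matches both NF-kB forms on the opposite strand, so the 2 matches overlap. Of the 32851 promoters in the table, 5.82% held GGGNNTTCC, 5.56% its longer form, 7.81% TGANTCA, 19.0% AGAACA, 3.44% the interferon-regulatory factor motif and 3.20% GAGGAAGT, while 3 (0.00913%) held the full glucocorticoid receptor motif. These are letter matches and were not tied to a hotspot.

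The lists differ in length, which bears on every result that follows. The Dex before LPS lists held 34646 and 44686 hotspots, the late Dex lists 29347 and 44447, and the LPS alone lists 48084 and 51834. They listed 55.1% and 72.5%, 46.5% and 71.6%, and 78.6% and 85.5% of all regions, in the same order. The weakest listed z-score was 9.34 and 9.16 with Dex before LPS, 11.6 and 8.98 with late Dex, and 7.98 and 8.35 with LPS alone, so a weak region can be missing from a Dex list for that reason. Regions were therefore compared by rank among the 25091 shared regions, those that all 6 libraries listed, as a percentile in which 100 is the strongest z-score of that library. A region is called lower where every library of the first group had a lower percentile than every library of the second, and higher where the reverse held. With 2 libraries against 2 the smallest exact two-sided permutation p is 0.333, so no region could pass the usual threshold and none was tested. Each count is instead set beside the share of all shared regions that met the same condition. The z-scores and tag densities are the authors' own values for each hotspot.

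In the Ccl2 window, LPS alone listed nearly every region, and the Dex lists held fewer. The Dex before LPS libraries listed 13 and 17 of the 24 regions, the late Dex libraries 9 and 18, and the LPS alone libraries 23 and 23. As shares these were 54.2% and 70.8%, 37.5% and 75.0%, and 95.8% and 95.8%. The Dex shares were within a few points of those over all regions, except in replicate 1 of late Dex, which was lower, while both LPS alone shares were above theirs. Of the 16 regions that were not in all 6 lists, 14 (87.5%) were in both LPS alone lists, against 50.3% of such regions over the whole series. Hotspots in this window covered 9334 and 12572 bp with Dex before LPS, 7194 and 12873 bp with late Dex, and 20237 and 20677 bp with LPS alone.

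LPS alone again listed the most regions in the Ccl5 window. The Dex before LPS libraries listed 19 and 21 of the 31 regions, the late Dex libraries 18 and 23, and the LPS alone libraries 28 and 30. Hotspots covered 16245 and 20507 bp with Dex before LPS, 16024 and 23528 bp with late Dex, and 30171 and 31920 bp with LPS alone. Relative to list length, LPS alone did not hold the most hotspots in this window, while covered length was not set against list length. In the hotspot count a region split into several hotspots enters more than once. Per 10000 hotspots of its list, the window held 5.77 and 5.15 with Dex before LPS, 6.82 and 5.85 with late Dex, and 5.82 and 5.79 with LPS alone. By this count Dex before LPS lay just below LPS alone and late Dex above it, without overlap. In the Ccl2 window these values were 4.04 and 4.25, 3.41 and 4.50, and 4.99 and 4.44, so Dex before LPS again lay below LPS alone, and late Dex overlapped it.

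**Figure D1:**
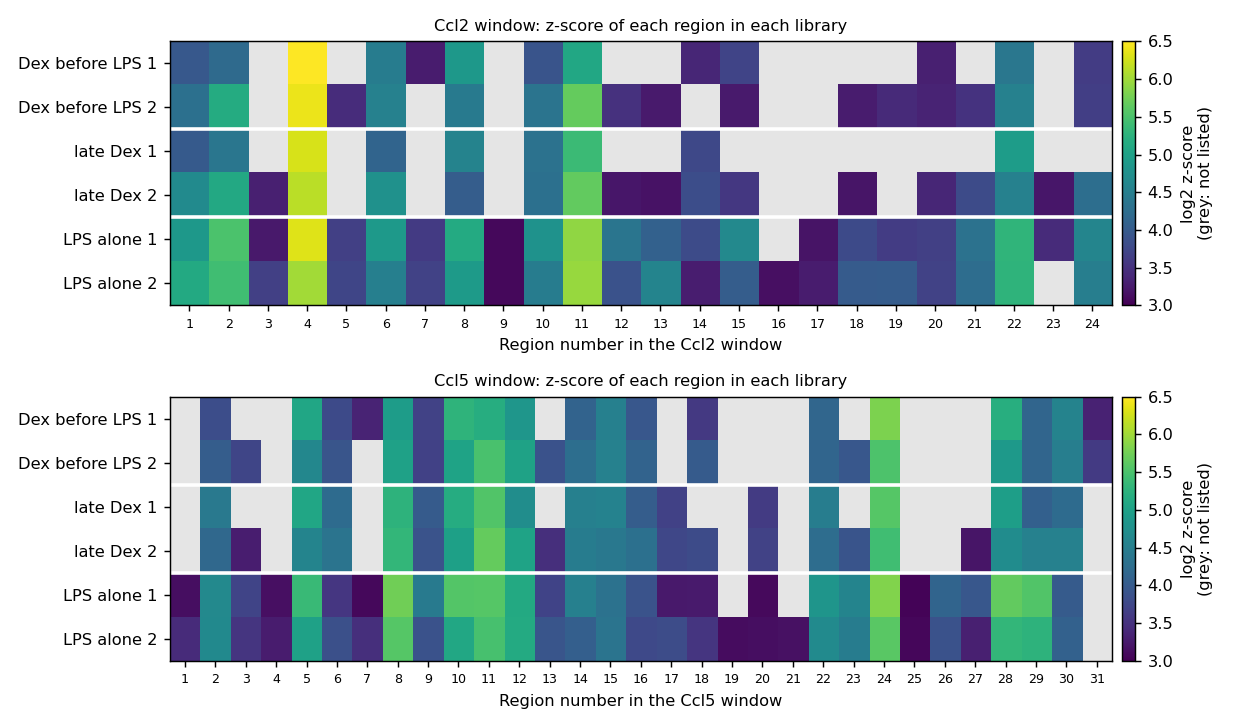
Listing of all 55 regions in the 6 libraries. Columns are regions in order of position (24 in the Ccl2 window, above, and 31 in the Ccl5 window, below), rows are libraries, colour is the log2 of the authors' z-score and grey marks a region the library did not list. The bottom 2 rows, LPS alone, have the fewest grey cells.

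The strongest region of the Ccl2 window, region 4 (81820023 to 81821475), ranked as high with Dex as without it. Its z-scores were 89.7 and 84.7 with Dex before LPS, 77.9 and 70.1 with late Dex, and 80.2 and 64.5 with LPS alone. Its percentiles were 89.9 and 92.9, 87.0 and 91.3, and 85.9 and 86.5. All 4 Dex libraries thus ranked it above both LPS alone libraries, by 5.18 percentile points with Dex before LPS and by 2.95 with late Dex. By maximum tag density, whose values were 61.4 and 68.0, 58.0 and 55.8, and 69.6 and 55.2, the groups overlapped.

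Around it, most of the other shared regions ranked lower with Dex. Of the 8 shared regions in the Ccl2 window, 5 (62.5%) were lower and 1 (12.5%) was higher with Dex before LPS than with LPS alone, where 19.3% of all shared regions were lower and 19.3% were higher. With late Dex 4 (50%) were lower and 1 (12.5%) was higher, where 18.0% of all shared regions were lower and 17.2% were higher. In 3 (37.5%) all 4 Dex libraries lay below both LPS alone libraries, where 9.52% of all shared regions did so, and in 1 (12.5%) all 4 lay above, where 9.87% did. The median difference from LPS alone was -13.8 percentile points with Dex before LPS and -11.7 with late Dex, against medians of 0.0438 and -0.179 over all shared regions. With a library of a compared group left out the groups overlap less often by construction. Leaving out any library can also change which regions are shared. No share of all shared regions was computed for those settings. Without replicate 1 of late Dex 11 regions of the window were shared, of which 8 were lower with late Dex. In 6 all remaining Dex libraries lay below LPS alone. The late Dex median was then -7.46, and it was -6.69 without replicate 2 of Dex before LPS. Without replicate 2 of LPS alone 5 had all Dex libraries below. The single higher region became 2 for late Dex without replicate 1 of late Dex or replicate 2 of Dex before LPS, and 2 for Dex before LPS without replicate 1 of LPS alone.

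Region 1 (81809555 to 81811189) had the largest difference in this window. Its percentiles were 18.8 and 21.0 with Dex before LPS, 18.9 and 43.0 with late Dex, and 44.7 and 59.3 with LPS alone. Its maximum densities were 14.0 and 15.9, 14.8 and 22.6, and 22.7 and 30.2 in the same order. Replicate 2 of the late Dex group came close to replicate 1 of LPS alone, while the other 3 Dex libraries stayed far below it. The mean percentile was 19.9 ± 1.55 with Dex before LPS, 31.0 ± 17.1 with late Dex and 52.0 ± 10.4 with LPS alone (SD, n = 2 each).

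Region 22 (81914432 to 81915799) separated all 3 groups. Its percentiles were 35.8 and 31.5 with Dex before LPS, 55.7 and 36.3 with late Dex, and 60.3 and 65.1 with LPS alone. The maximum densities were 12.8 and 19.4, 21.6 and 22.6, and 31.8 and 38.5. Both measures were lowest with Dex before LPS, intermediate with late Dex and highest with LPS alone, with no overlap between any of the groups.

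Region 2 (81818016 to 81819046) had z-scores of 18.5 and 35.5 with Dex before LPS, 20.7 and 34.7 with late Dex, and 45.4 and 42.8 with LPS alone. Its percentiles were 28.3 and 58.9, 35.2 and 62.6, and 66.8 and 70.2. Replicate 1 was the lower library in both Dex groups. Region 11 (81854896 to 81856192), the second strongest of the window, also had its lower Dex values in replicate 1, with maximum densities of 27.2 and 48.6, 39.2 and 54.9, and 63.2 and 73.6. It was lower with Dex before LPS at percentiles of 60.2 and 76.7 against 77.6 and 85.1 with LPS alone, while late Dex (68.5 and 80.8) overlapped LPS alone.

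Region 8 (81848549 to 81849546) was the shared region with the largest difference for late Dex. Its percentiles were 53.0 and 26.9 with Dex before LPS, 42.8 and 13.7 with late Dex, and 54.9 and 49.3 with LPS alone. Here replicate 2 was the low library of both Dex groups, the reverse of regions 2 and 11. Region 10 (81851636 to 81853211) stood at 16.6 and 23.1 with Dex before LPS, below both late Dex (32.8 and 24.1) and LPS alone (40.8 and 28.1). Region 6 (81835905 to 81837882) was the shared region whose groups overlapped by z-score in every comparison, at 38.8 and 31.9, 24.6 and 47.1, and 45.4 and 29.9. Ranked by maximum density it was lower with Dex before LPS, at percentiles of 38.4 and 33.7, than with LPS alone, at 61.4 and 53.4.

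**Figure D2:**
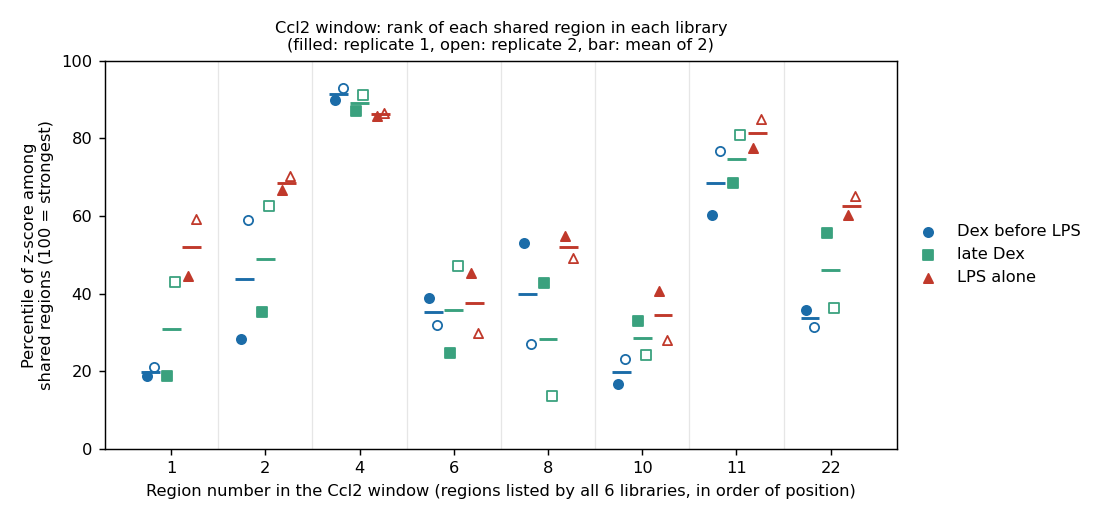
Percentile of the 8 shared regions of the Ccl2 window in each library. The vertical axis is the percentile of the z-score among 25091 shared regions, each symbol is a library, filled for replicate 1 and open for replicate 2, and bars are means of 2. Region 4 lies near the top in all libraries, and regions 1, 2 and 22 show all Dex symbols below both LPS alone symbols.

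Ranking by maximum density gave the same direction in the Ccl2 window with wider gaps. By this measure 7 of 8 regions (87.5%) were lower and 0 higher with Dex before LPS, where 18.6% of all shared regions were lower and 17.8% higher, and the exception was region 4. With late Dex 4 (50%) were lower and 0 higher, where 17.8% were lower and 16.7% higher. In 4 (50%) all 4 Dex libraries lay below both LPS alone libraries and in 0 above, where 9.49% and 9.12% of all shared regions did so. The median difference was -26.4 percentile points with Dex before LPS and -18.5 with late Dex.

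Hotspots of the Ccl2 window were also narrower with Dex. In all 8 shared regions the length covered was smaller in all 4 Dex libraries than in both LPS alone libraries, where 33.9% of all shared regions met this condition and 1.46% met the reverse. Region 1, for instance, was covered over 588 and 1042 bp with Dex before LPS, 460 and 1015 bp with late Dex, and 1499 and 1616 bp with LPS alone. Region 4, whose rank was not lower, spanned 1112 and 1328 bp, 1044 and 1186 bp, and 1417 and 1348 bp.

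Some regions of the Ccl2 window were missing from a whole group. Both LPS alone libraries listed region 9 (81851069 to 81851399), at z-scores of 8.46 and 8.41, and region 17 (81891507 to 81891954), at 9.10 and 9.67, and no Dex library listed either. Region 9 lay under the weakest z-score of every Dex list, 8.98 or more, so its absence does not show it to be weaker with Dex. Region 17 lay under the 11.6 of replicate 1 of late Dex and close to the weakest of the other Dex lists. These 2 of 24 regions (8.33%) compare with 5.18% over the whole series, and 0 regions were listed in all 4 Dex libraries alone, where 0.389% were. With lists of equal length 1 of 16 regions was listed with LPS alone only, and with hotspots up to 500 bp apart merged 1 of 18. Where hotspots had to cover 50% or more of a region, 7 of 24 were. A region spans the hotspots of all lists, so the narrower Dex hotspots fail that rule more easily. The count of regions listed with LPS alone only was 4 without replicate 2 of Dex before LPS. No share of all regions was computed for these settings. Region 3 (81819109 to 81819909) was missing from both Dex before LPS lists and present at 9.92 in replicate 2 of late Dex and at 9.48 and 12.7 with LPS alone. In all, 3 regions (12.5%) were in both LPS alone lists and neither Dex before LPS list, where 8.48% of all regions were, and 0 were the other way round, where 0.957% were. For late Dex 5 regions (20.8%) were in both LPS alone lists and neither late Dex list, where 9.22% of all regions were, and 0 the other way round, where 0.547% were. They include region 5 (81829645 to 81830276), at 12.6 and 13.3 with LPS alone, region 7 (81846009 to 81846696), at 12.1 and 13.0, and region 19 (81905719 to 81906400), at 12.3 and 16.2.

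Other regions were missing from 1 or 2 Dex lists and were chosen for mention after their values were seen. Region 13 (81861222 to 81862066) had z-scores of 9.49 in replicate 2 of Dex before LPS, 9.01 in replicate 2 of late Dex, and 17.1 and 24.0 with LPS alone. Its maximum densities were 7.21, 8.41, and 14.4 and 20.1. Region 24 (81952814 to 81953772), the last of the window, had z-scores of 12.4 and 12.5 with Dex before LPS, 19.2 in replicate 2 of late Dex, and 24.1 and 22.6 with LPS alone. Replicate 1 of late Dex did not list it, although that list began at 11.6. Region 14 (81880384 to 81881043) departed from this pattern, at 10.4 in replicate 1 of Dex before LPS, 13.6 and 14.3 with late Dex, and 13.9 and 9.73 with LPS alone.

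In the Ccl5 window the shared regions differed in both directions. Of its 16 shared regions, 6 (37.5%) were lower and 4 (25.0%) higher with Dex before LPS than with LPS alone. With late Dex 4 (25.0%) were lower and 6 (37.5%) higher. In 3 (18.8%) all 4 Dex libraries lay below both LPS alone libraries and in 4 (25.0%) above. Of all shared regions, 19.3% were lower and 19.3% higher with Dex before LPS, and 18.0% lower and 17.2% higher with late Dex. All 4 Dex libraries lay below both LPS alone libraries in 9.52% of them and above in 9.87%. The median differences were -3.95 percentile points with Dex before LPS and -2.93 with late Dex, within a range from -46.2 to 24.2 and from -37.1 to 23.1. Without replicate 2 of the late Dex group the median for late Dex was 0.886, without replicate 1 of late Dex -1.73 and without replicate 1 of LPS alone -0.161. For Dex before LPS the median was -2.09 without replicate 2 of Dex before LPS, -6.15 without replicate 1 of Dex before LPS and -8.74 without replicate 2 of LPS alone. Ranked by maximum density, 10 regions (62.5%) were lower and 1 (6.25%) higher with Dex before LPS, where 18.6% and 17.8% of all shared regions were. With late Dex 8 (50%) were lower and 2 (12.5%) higher, where 17.8% and 16.7% were. In 8 (50%) all 4 Dex libraries lay below LPS alone and in 1 (6.25%) above, where 9.49% and 9.12% did. Counts with a library left out again have no share of all shared regions to be set beside. Without replicate 1 of Dex before LPS, or without replicate 2 of LPS alone, 10 regions were lower by z-score with Dex before LPS. Without replicate 1 of late Dex or replicate 2 of LPS alone 8 were lower with late Dex. Without replicate 1 of late Dex, replicate 1 of LPS alone or replicate 2 of LPS alone, 5, 5 and 7 regions had all remaining Dex libraries below LPS alone.

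The largest difference of all lay in region 29 (83476740 to 83480017), toward the end of the window with the highest coordinates. Its z-scores were 17.6 and 17.6 with Dex before LPS, 16.9 and 23.1 with late Dex, and 46.7 and 38.3 with LPS alone. Its percentiles were 25.7 and 14.3, 22.6 and 35.7, and 68.0 and 64.4, a difference of -46.2 points with Dex before LPS and -37.1 with late Dex. With LPS alone it was a single hotspot of 3229 and 3277 bp. In each of the 4 Dex libraries it was split into 2 hotspots that together covered 1515 and 1601 bp with Dex before LPS and 1385 and 1842 bp with late Dex. The stretch between the Dex hotspots, from 83477466 to 83478664, was thus listed with LPS alone only.

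The maximum density of region 29 differed less than its z-score. It was 20.6 and 23.5 with Dex before LPS, 16.0 and 27.5 with late Dex, and 30.8 and 28.1 with LPS alone. The groups did not overlap by this measure either, but replicate 2 of late Dex almost reached LPS alone. A z-score is given per hotspot, and every Dex hotspot here was shorter and had a lower z-score than both LPS alone hotspots. The part of hotspot length in the lower z-scores was not tested.

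Its neighbour, region 28 (83475481 to 83476723), was lower too. Its percentiles were 62.9 and 47.4 with Dex before LPS, 56.8 and 44.0 with late Dex, and 71.3 and 66.8 with LPS alone. Its maximum densities were 27.6 and 27.3, 22.0 and 25.7, and 40.1 and 37.1. On the side of lower coordinates, region 27 (83472224 to 83472866) was listed at a z-score of 9.15 in replicate 2 of late Dex and at 15.4 and 9.89 with LPS alone, and in no Dex before LPS library. Region 26 (83468979 to 83469809) was listed with LPS alone only, at z-scores of 17.5 and 14.7 and maximum densities of 18.4 and 16.7. Region 25 (83464992 to 83465339) was likewise listed with LPS alone only, at 8.17 and 8.36. Regions 28 and 29 thus ranked lower in the Dex libraries, and regions 25 to 27 were missing from some or all Dex lists. The z-scores of region 25 lay under the weakest of every Dex list, 8.98 or more. Its absence there therefore does not show it to be weaker with Dex. Region 24 (83461502 to 83463663), the next one down and the strongest of the window, ranked close to its place with LPS alone, at percentiles of 77.8 and 72.2 with Dex before LPS, 73.0 and 73.7 with late Dex, and 75.5 and 75.8 with LPS alone. Late Dex differed there by -2.32 points, without overlap, and Dex before LPS overlapped LPS alone.

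At the other end of the window, region 8 (83347501 to 83348957) ranked lower with Dex in steps by z-score. Its percentiles were 54.9 and 53.1 with Dex before LPS, 65.1 and 70.1 with late Dex, and 73.2 and 75.2 with LPS alone. Its z-scores were 30.5 and 32.1, 38.3 and 39.9, and 53.6 and 47.8. By z-score the groups were apart in all 3 comparisons. By maximum density both Dex groups ranked below LPS alone, but Dex before LPS (percentiles of 57.2 and 71.5) overlapped late Dex (68.1 and 78.1).

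Region 2 (83336794 to 83341260) was the widest of the window, at 4466 bp. With LPS alone it was a single hotspot of 4411 and 4466 bp. The Dex before LPS libraries listed 1 and 2 hotspots there, covering 957 and 1602 bp, and the late Dex libraries 2 and 3, covering 1672 and 3625 bp. Its percentiles were 14.0 and 10.4 with Dex before LPS, 36.8 and 19.6 with late Dex, and 35.3 and 37.3 with LPS alone. By z-score Dex before LPS was thus below both other groups, and late Dex overlapped LPS alone. By maximum density late Dex (percentiles of 41.8 and 34.7) was below LPS alone (47.2 and 57.7) too. Region 22 (83452975 to 83455150) was lower by z-score with Dex before LPS as well, at 26.4 and 14.4 against 42.8 and 38.3 with LPS alone. It stood at 39.6 and 22.3 with late Dex. By maximum density its late Dex percentiles, 49.7 and 47.0, lay below those of LPS alone, 55.2 and 63.0.

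Over the window, 11 of 16 shared regions (68.8%) were covered over a smaller length in all 4 Dex libraries than in both LPS alone libraries, and 0 over a larger one, where 33.9% and 1.46% of all shared regions were. In the stretch of chromosome 11 between the windows 14 of 28 shared regions (50%) were covered over a smaller length and 0 over a larger one.

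Some regions ranked higher with Dex. Region 30 (83517030 to 83517965) had the largest positive difference for Dex before LPS. Its percentiles were 42.5 and 29.9 with Dex before LPS, 28.7 and 36.3 with late Dex, and 11.0 and 12.9 with LPS alone. Its z-scores were 23.7 and 22.6, 18.6 and 23.3, and 16.0 and 17.1. Its maximum densities were 16.5 and 20.9, 15.2 and 20.8, and 12.4 and 15.3, and by this measure too it ranked above LPS alone in all 4 Dex libraries. Beside it, region 31 (83518752 to 83519247) was listed by the Dex before LPS libraries alone, at 10.1 and 12.1.

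Region 6 (83345288 to 83346133) had the largest positive difference for late Dex. Its percentiles were 12.8 and 7.48 with Dex before LPS, 28.5 and 27.1 with late Dex, and 2.67 and 6.69 with LPS alone. Its maximum densities were 11.5 and 13.3, 16.8 and 21.3, and 14.4 and 13.9. Late Dex was highest by both measures. Dex before LPS was above LPS alone by z-score and below it by maximum density, so its direction depends on the measure.

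Regions 15 (83390427 to 83391284) and 16 (83391497 to 83392225) are next to each other and ranked higher in all 4 Dex libraries. Region 15 stood at percentiles of 40.7 and 31.6 with Dex before LPS, 42.4 and 29.4 with late Dex, and 21.8 and 22.4 with LPS alone. Region 16 stood at 18.6 and 13.3, 20.6 and 24.1, and 8.29 and 4.89. By maximum density, 19.4 and 25.1, 22.8 and 23.9, and 21.7 and 25.3 for region 15, the groups overlapped, and so they did for region 16. Region 11 (83357191 to 83358548) was the second strongest of the window. By z-score late Dex (72.46 and 81.2) lay above LPS alone (68.7 and 72.42) by a narrow margin, with Dex before LPS at 62.4 and 71.3. By maximum density late Dex (percentiles of 78.5 and 93.6) overlapped LPS alone (84.0 and 92.2).

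**Figure D3:**
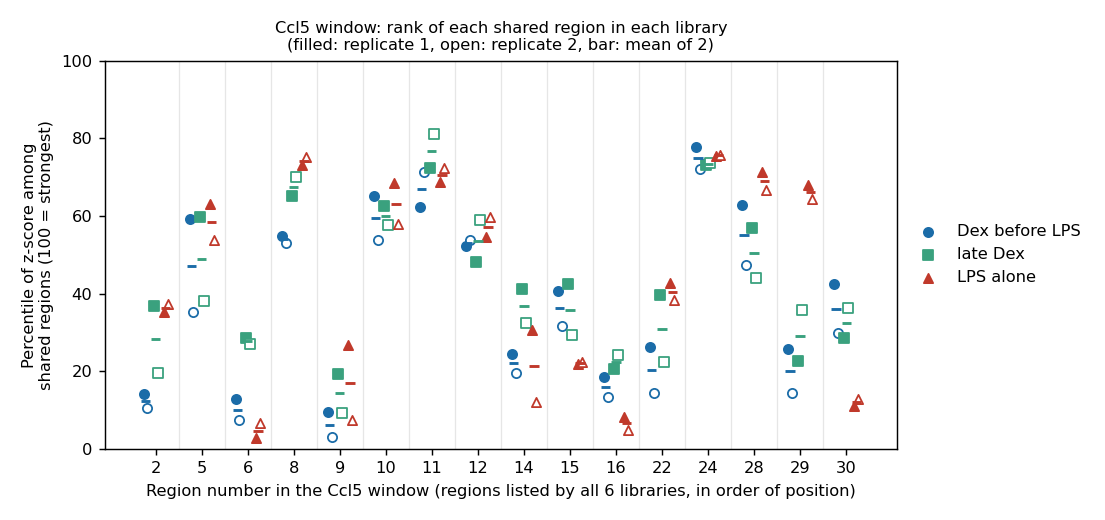
Percentile of the 16 shared regions of the Ccl5 window in each library. Axes and symbols are as in the plot of the Ccl2 window. Region 29 has LPS alone at 68.0 and 64.4 and all Dex symbols at 35.7 or lower, and region 30 has LPS alone at 11.0 and 12.9 and all Dex symbols at 28.7 or higher.

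Several regions of the Ccl5 window were also missing from whole groups. Both LPS alone libraries and no Dex library listed 4 of the 31 regions (12.9%), where 5.18% of all regions met this condition. They were the regions 25 and 26 above, region 1 (83335588 to 83336423) at 8.76 and 10.7, and region 4 (83342604 to 83343302) at 8.82 and 9.65. This count was 0 with lists of equal length and 2 with hotspots up to 500 bp apart merged, settings without a computed share of all regions. In both LPS alone lists and neither Dex before LPS list were 7 regions (22.6%), where 8.48% of all regions were. In both LPS alone lists and neither late Dex list were 5 regions (16.1%), where 9.22% of all regions were. Among the 5 missing from both late Dex lists was region 7 (83346563 to 83347121), at 10.2 in replicate 1 of Dex before LPS and at 8.47 and 11.1 with LPS alone. In the other direction stood 1 region for Dex before LPS (3.23%), region 31, and 0 for late Dex, where 0.957% and 0.547% of all regions did.

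Among the 16 shared regions of the Ccl5 window 6 (37.5%) ranked lower and 0 higher with Dex before LPS than with late Dex, where 14.5% of all shared regions were lower and 14.7% higher. In the Ccl2 window 2 of 8 (25.0%), regions 10 and 22, were lower and 0 higher. Same-numbered pairs (a replicate block) set a looser condition, for which no share of all shared regions was computed. Counted by it, 9 regions of the Ccl5 window were lower and 1 higher with Dex before LPS. In the Ccl2 window 5 were lower and 2 higher. The 6 regions of the Ccl5 window were 2, 6, 8, 11, 14 and 16. The largest difference was that of region 6, at -17.7 percentile points, followed by region 2 at -16.0 and region 14 (83385470 to 83386339) at -14.8. Region 14 stood at 24.5 and 19.5 with Dex before LPS, 41.1 and 32.5 with late Dex, and 30.6 and 12.0 with LPS alone. The median difference between the Dex groups was -7.21 points in the Ccl5 window and -5.72 in the Ccl2 window, against 0.0837 over all shared regions. This median was 0.457 in the Ccl2 window without replicate 2 of late Dex, -2.32 without replicate 1 of Dex before LPS and -10.2 without replicate 2 of Dex before LPS. For the Ccl5 window it was -3.60 without replicate 2 of Dex before LPS and -4.75 without replicate 1 of late Dex, and it stayed below 0 with any single library left out. For the counts with a library left out no share of all shared regions was computed. Where that library belonged to a compared group, the groups overlap less often by construction. Without replicate 1 of Dex before LPS 12 regions of the Ccl5 window were lower, and without replicate 2 of late Dex 10. In the Ccl2 window 6 were lower without replicate 2 of Dex before LPS and 7 without replicate 1 of late Dex. Regions that were higher with Dex before LPS then appeared, 4 in the Ccl5 window without replicate 2 of Dex before LPS, 2 there without either late Dex library, and 1 or 2 in the Ccl2 window without any single one of the 4 Dex libraries.

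In the Ccl5 window 2 regions (6.45%) were listed in both late Dex libraries and neither Dex before LPS library, where 0.350% of all regions were. They were region 17 (83394256 to 83394850), at 12.7 and 13.5 with late Dex and 9.44 and 14.1 with LPS alone, and region 20 (83431699 to 83432230), at 12.2 and 12.9 with late Dex and 8.49 and 8.77 with LPS alone. The reverse held for region 31 alone, where 1.53% of all regions met it.

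**Figure D4:**
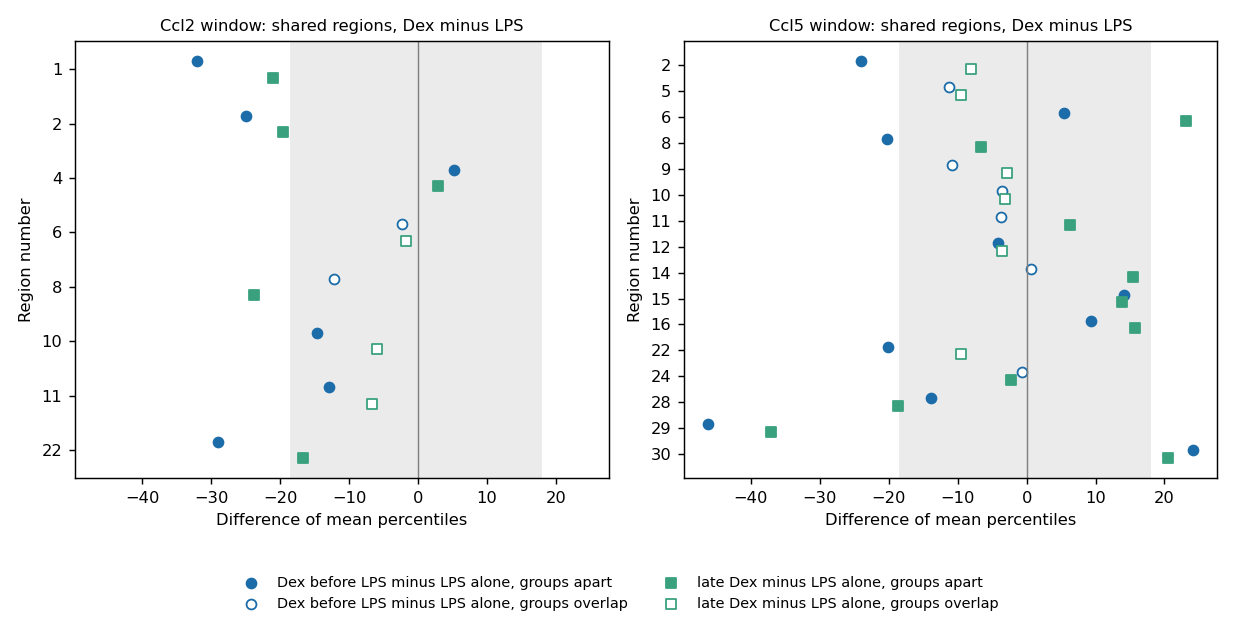
Difference of mean percentiles between each Dex group and LPS alone for the shared regions of both windows. Filled symbols mark regions whose libraries do not overlap between the groups, and the grey band spans the middle of all shared regions, from the 5th to the 95th centile (-18.4 to 17.9 percentile points) of the difference between Dex before LPS and LPS alone. In the Ccl2 window 7 of 8 regions lie left of 0 for both Dex groups, and in the Ccl5 window region 29 is farthest left and region 30 among those farthest right.

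The stretch of chromosome 11 between the windows gives a local comparison. It held 51 regions, 28 of them shared. Of these, 7 (25.0%) were lower and 5 (17.9%) higher with Dex before LPS than with LPS alone, and 4 (14.3%) were lower and 4 (14.3%) higher with late Dex. The median differences were 1.01 and -1.33 percentile points. These rank-based shares are nearer to those of all shared regions than the shares of the Ccl2 window are. The share covered over a smaller length in all 4 Dex libraries, 50%, was above that of all shared regions here too. The difference between the stretches was not tested.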

How the data were processed

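DNase-seq maps open chromatin by sequencing the ends of DNA freed by a light DNase I digestion. The labels' protocols give a digestion of nuclei with 80 U/ml of the enzyme over 3 min, selection of fragments from 100 to 500 bp and single-end reads of 51 bp. The submitters' processing notes name CASAVA and the mm9 build. The aligner, the caller of hotspots and its threshold were not given in the sources used here. The deposited lists, 1 per library, give each hotspot's start and end, maximum and average tag density (a signal whose scaling is not stated), z-score and p-value, per the file headers. How the authors computed this z-score, the only deposited score, is not described in the sources used here. The deposited p-values and average densities were not used, and total depth is unknown. Positions are printed as deposited, since no source gives their first base as 0 or 1.

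Hotspots of the 6 lists were merged where they overlapped or touched, and a region's value in a library was the highest score among its hotspots there. Ranks were turned into percentiles over the regions listed by all 6 libraries with pandas 2.3.3 on Python 3.11.15, a step tested on simulated data with known shifts. The simulation used independent noise, whereas deviations of same-numbered libraries correlated in these data, and its outcome is not reported here. The members and rules were chosen with earlier results of these data known. Named were the 3 regions with the highest mean percentile per window, regions that both libraries of a group listed and neither of another did, and the 3 largest differences without overlap per comparison and direction. Regions 6, 13, 14 and 24 of the Ccl2 window and region 22 of the Ccl5 window were added after their values were seen. Motifs were matched in RefSeq's GRCm38.p6 promoters. Other CC chemokine and receptor genes were not used here, since no mm9 annotation was at hand.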

Additional observations from a re-analysis of the deposited data

How the results depend on the processing

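Outside the omission of single libraries, 106 recomputed values stayed within the limits set for them (a count within 1.5 times, a median within the spread between replicates), and 32 moved. The cause was not tested for any of them. In the Ccl2 window the median against LPS alone stayed below 0 for both Dex groups under every alternative and every omission run.

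Ranking by maximum density moved most. In the Ccl2 window the higher counts became 0 for Dex before LPS, 0 for late Dex and 0 for all 4 Dex libraries, and the medians against LPS alone -26.4, -18.5 and -25.2. In the Ccl5 window the lower counts became 10, 8 and 8 and the higher counts 1, 2 and 1 in the same order, the late Dex median -6.32, and 1 region was higher with Dex before LPS than with late Dex.

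With hotspots up to 500 bp apart merged, the late Dex median of the Ccl2 window was -6.93. In the Ccl5 window 2 of then 13 shared regions were higher for Dex before LPS and 2 for all 4 Dex libraries. Regions listed with LPS alone only numbered 1 of 18 in the Ccl2 window and 2 in the Ccl5 window. With lists of equal length, 29347 hotspots each, those higher counts were 2 and 2 again, also of 13 shared regions. Regions listed with LPS alone only were then 1 of 16 in the Ccl2 window and 0 in the Ccl5 window. In the Ccl5 window 1 region was listed by all 4 Dex libraries alone. A further setting required hotspots to cover 50% or more of a region for it to count as listed. By it 7 of 24 regions of the Ccl2 window were listed with LPS alone only. A region spans the hotspots of all lists, so narrower hotspots, here mostly those with Dex, fail this rule more easily. The settings of this paragraph can change how many regions are counted, and no share of all regions was computed for them.

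Nothing in the labels says that replicate numbers pair the libraries. Over all shared regions the deviations of same-numbered libraries correlated at 0.415 between the Dex groups, 0.363 between Dex before LPS and LPS alone and 0.354 between late Dex and LPS alone, across regions, which are not independent. With the replicate block a region counts if all same-numbered pairs differ alike, and no share of all shared regions was computed for this looser condition. By it the Ccl2 window had 5 regions lower and 2 higher with Dex before LPS than with late Dex. In 6 each Dex library lay below the LPS alone library of its number. The Ccl5 window had 10 lower with Dex before LPS and 8 lower with late Dex than with LPS alone. In 7 each Dex library lay below the LPS alone library of its number, and 1 was higher with Dex before LPS than with late Dex.

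With each library left out in turn, the Ccl2 medians ran from -18.0 to -10.0 for Dex before LPS and from -14.7 to -6.69 for late Dex against LPS alone, and from -10.2 to 0.457 between the Dex groups. Lower counts there ran from 4 to 8 for late Dex, 3 to 6 for all Dex libraries and 2 to 7 between the Dex groups. Higher counts ran from 1 to 2 against LPS alone for either Dex group and 0 to 2 between the Dex groups, and regions listed with LPS alone only from 2 to 4, the most without replicate 2 of Dex before LPS. In the Ccl5 window the medians ran from -8.74 to -2.09 for Dex before LPS, from -3.88 to 0.886 for late Dex and from -10.5 to -3.60 between the Dex groups. Lower counts there ran from 6 to 10 for Dex before LPS, 4 to 8 for late Dex, 3 to 7 for all Dex libraries and 6 to 12 between the Dex groups, where higher counts ran from 0 to 4. Where the library left out belonged to a compared group, the groups overlap less often by construction. No share of all shared regions was computed for these counts. Sequencing depth is unknown, and the weakest listed z-score differs from list to list.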
